A study of Mus musculus with 6 samples.

Results

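Inflammatory chemokines are small secreted or membrane-tethered proteins that attract leukocytes. They are sorted by the spacing of their first cysteines into CC, CXC and CX3C families, they bind heparan sulphate on the vessel wall, and they act through G protein-coupled receptors on the cells they recruit. In the brain, endothelial cells, microglia, perivascular macrophages and mural cells can all make them, and several are classical targets of NF-kappaB or of interferon. The transcripts described here were 10 genes taken by symbol, and the choice was made with earlier results of these data known. They were 5 CC genes (Ccl2, Ccl3, Ccl4, Ccl5 and Ccl7), 4 CXC genes (Cxcl1, Cxcl9, Cxcl10 and Cxcl16) and 1 CX3C gene (Cx3cl1). All 10 were found among the 55450 genes of the count table, and all 10 passed the low-count filter that left 19549 genes for testing.

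The 6 libraries, 3 mutant and 3 control, were stranded poly(A) RNA-seq of endothelial cells that had been captured with CD31 magnetic beads from the brains of 7-day-old mice. Mutant mice were Cdh5(PAC)-CreERT2; Rbpjflox/flox and control mice were Cdh5(PAC)-CreERT2; Rbpjflox/WT, so that both groups carried the endothelial, tamoxifen-inducible Cre and at least a single floxed allele of Rbpj, the DNA-binding protein of Notch signalling. Tamoxifen (100 µg) was given to all pups on days 1 and 2 after birth, and the strain was a mix of FVB/N and C57BL/6, without selection by sex. Cre was driven by the Cdh5 promoter, which is active in endothelial cells. RNA was pooled over mice before sequencing. The labels do not say if each library had its own pool, so that p-values measure no more than the spread among the libraries sequenced, and this may be technical.

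Libraries held 75744913 to 81556241 counts in the mutant group and 78577192 to 82092461 counts in the control group, with about 4 counts for each read pair. Rbpj averaged 46.6 ± 1.34 CPM in mutant and 54.1 ± 0.294 CPM in control libraries (SD, n = 3 each), a log2 fold change of -0.21 ± 0.042 (SE) with an adjusted p of 0.0129. That p was 0.051 without mutant library 2, 0.0571 without control library 1 and 0.0543 without control library 2. Counts were made over the whole gene, and the exons removed by Cre were not counted apart. The cause of the small size of this difference was not tested. All 12 endothelial markers were detected, with Cldn5 at a mean of 3095 CPM in mutant and 3064 CPM in control libraries and Pecam1, which encodes CD31, at 1492 CPM in mutant and 1121 CPM in control libraries. Of these 12, Pecam1, Emcn, Egfl7 and Tie1 were higher and 2 were lower: Tek, at 397 CPM in mutant and 609 CPM in control libraries (adjusted p = 0.000346), and Cdh5, at 1377 CPM in mutant and 1525 CPM in control libraries (adjusted p = 0.038, and between 0.0973 and 0.161 when a library other than mutant library 3 was left out). Over all tested genes 7.56% were higher and 6.83% lower, at an adjusted p under 0.05 in the test named below. Markers of microglia and macrophages were present too, and 15 of them summed to 1528 to 1579 CPM in mutant and 1958 to 1996 CPM in control libraries. In such bulk libraries fewer cells of a type and less RNA per cell cannot be told apart. Mutant library 3 stood apart from the other mutant libraries on the second principal component (-55.6, against 31.2 and 26.2), and it held the lowest mutant value of 8 of the 10 chemokines.

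Most of the chemokines were higher in the mutant libraries. Ccl2, Ccl3, Ccl4, Ccl5, Cxcl10 and Cxcl16 rose by 1.25- to 2.28-fold, Cx3cl1 and Cxcl1 fell, and Ccl7 and Cxcl9 were not called. A gene is called here when its adjusted p was under 0.05 in edgeR's quasi-likelihood test with Benjamini-Hochberg adjustment over all genes tested. Thus 8 of 10 were called, 6 higher and 2 lower, where 14.4% of all tested genes were called (7.56% higher and 6.83% lower). The median log2 fold change of the 10 was 0.65, against -0.0092 for all tested genes. The mutant and control values of 8 of the 10 genes did not overlap, as was the case for 34.1% of all tested genes. Because the 10 genes were chosen with earlier results known, these shares describe them and are not a test.

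**Figure D1:**
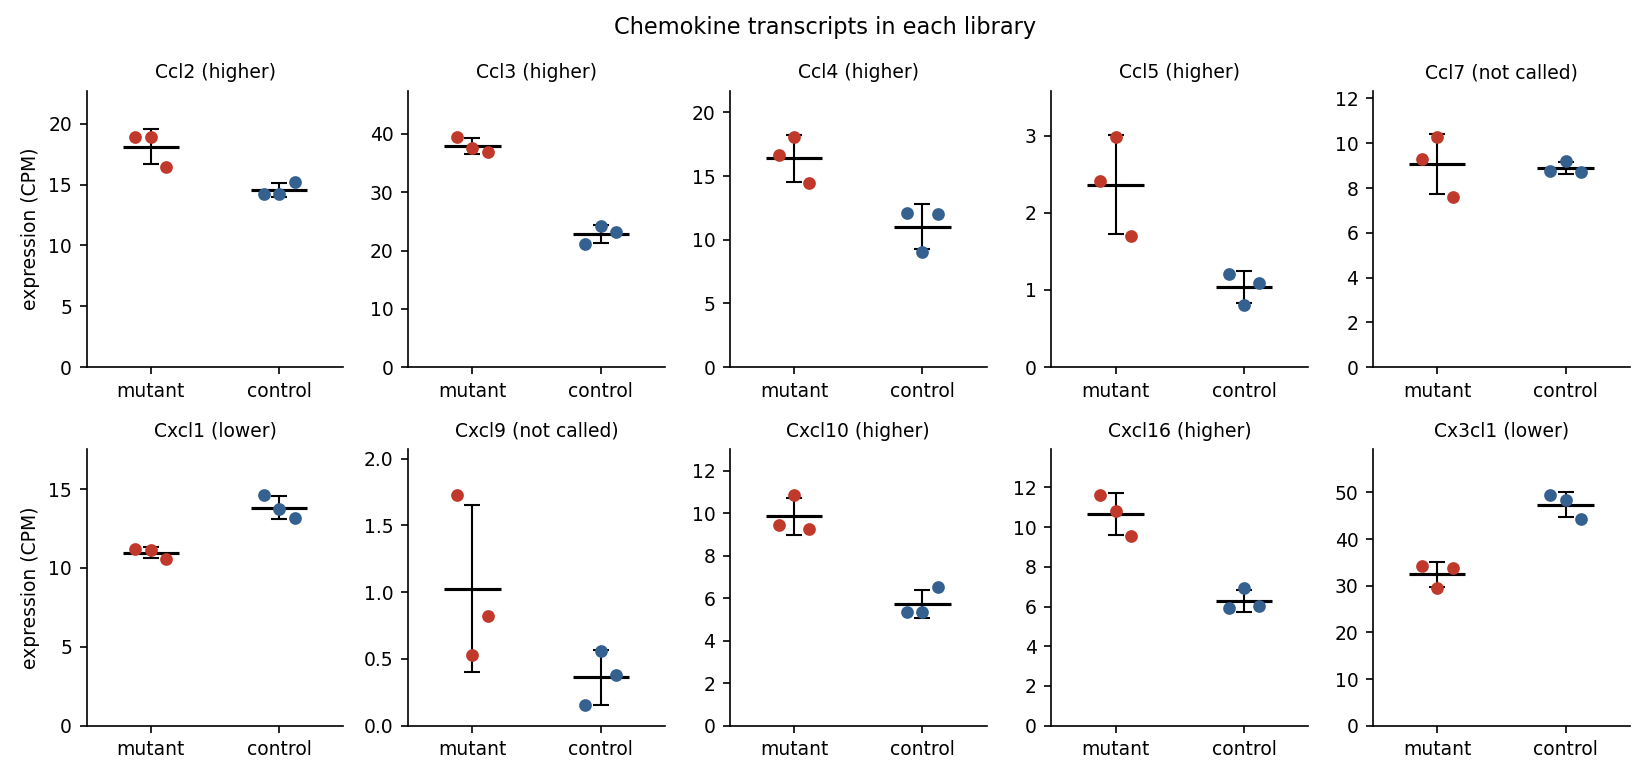
Expression (CPM, linear axis from 0) of the 10 chemokines in each mutant and control library, with the group mean (bar) and SD (whiskers) of 3 libraries. Ccl3 lay between 36.9 and 39.6 CPM in mutant and between 21.2 and 24.3 CPM in control libraries, while Cx3cl1 lay between 29.4 and 34.2 CPM in mutant and between 44.3 and 49.4 CPM in control libraries.

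Levels were ordered by CPM per kilobase of exon. In mutant libraries the order was Ccl3 (49.6 CPM per kb), Ccl4 (24.8), Ccl2 (15.9), Ccl7 (11.3), Cx3cl1 (8.27), Cxcl1 (5.85), Cxcl10 (4.38), Cxcl16 (3.53), Ccl5 (2.46) and Cxcl9 (0.34), and no neighbours in it had overlapping ranges. In control libraries Ccl3 (29.9 CPM per kb) and Ccl4 (16.7) again came first. Ccl2 (12.8), Cx3cl1 (12.1) and Ccl7 (11.1) came next there, with ranges that overlapped from each to the next. Cxcl1 (7.38), Cxcl10 (2.55), Cxcl16 (2.08), Ccl5 (1.08) and Cxcl9 (0.12) had separate ranges. Cx3cl1 thus stood just below Ccl7 in mutant libraries and just above it in control libraries, where their ranges overlapped.

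Ccl3 and Ccl4, formerly known as macrophage inflammatory proteins, attract monocytes, macrophages and T cells, and Ccl3 binds Ccr1. Ccl3 (ENSMUSG00000000982, chr11:83647844-83649355, minus strand, GRCm38) had 39.6, 37.5 and 36.9 CPM in the mutant libraries and 21.2, 24.3 and 23.1 CPM in the control libraries. Every mutant library lay well above every control library, and the gap between the groups was wider than the spread within either. Its log2 fold change was 0.73 ± 0.067 (SE), or 1.66-fold, with an adjusted p of 0.000384, the smallest of the 10. Ccl4 (ENSMUSG00000018930, chr11:83662584-83664683, plus strand) had 16.6, 18.1 and 14.5 CPM in mutant and 12.1, 9.01 and 11.99 CPM in control libraries. The groups did not overlap, but the spread within each was larger than for Ccl3. Its log2 fold change was 0.57 ± 0.138 (adjusted p = 0.0318), and that adjusted p was 0.0896, 0.0953, 0.053, 0.0569 and 0.0555 without mutant library 1, mutant library 2, or control library 1, 2 or 3.

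Ccl5 (RANTES; ENSMUSG00000035042, chr11:83525778-83530518, minus strand), a ligand of Ccr1 and Ccr3 made by T cells among others, was scarce. It had 2.41, 2.99 and 1.70 CPM in mutant and 1.21, 0.807 and 1.09 CPM in control libraries, which is about 32 to 58 read pairs per mutant and 16 to 24 per control library. All mutant values lay above all control values, and mutant library 3 was the lowest of them. The log2 fold change was 1.19 ± 0.266 (2.28-fold, adjusted p = 0.0237). The adjusted p was 0.067 or 0.0769 when mutant library 1 or 2 was left out, and 0.076 or 0.0662 when control library 2 or 3 was.

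Ccl2 and Ccl7 draw monocytes through Ccr2. Ccl2 (ENSMUSG00000035385, chr11:82035571-82037453, plus strand) had 18.9, 18.9 and 16.4 CPM in mutant and 14.2, 14.2 and 15.2 CPM in control libraries. The groups were separate by a narrow margin, between mutant library 3 and control library 3. The log2 fold change of Ccl2 was 0.32 ± 0.081 (1.25-fold, adjusted p = 0.0407). It is the call nearest to the threshold: the adjusted p was 0.058 when libraries were scaled by size alone, and 0.119, 0.12, 0.119, 0.115 and 0.068 without mutant library 1, mutant library 2, or control library 1, 2 or 3. Ccl7 (ENSMUSG00000035373, chr11:82045712-82047525, plus strand), which starts 8.26 kb beyond the end of Ccl2 on the same strand, had 9.30, 10.3 and 7.61 CPM in mutant and 8.78, 9.22 and 8.72 CPM in control libraries. Its groups overlapped, with mutant library 3 below every control library. The log2 fold change of Ccl7 was 0.03 ± 0.122 (adjusted p = 0.924), and 2 SE either side of it spans -0.22 to 0.27. A change of the size seen for Ccl3 lies outside this interval.

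Cxcl9 and Cxcl10 are interferon-inducible ligands of Cxcr3, a receptor of activated T and NK cells. Cxcl10 (ENSMUSG00000034855, chr5:92346638-92348889, minus strand) had 9.44, 10.8 and 9.27 CPM in mutant and 5.33, 5.37 and 6.51 CPM in control libraries. The groups were clearly apart, and the log2 fold change was 0.78 ± 0.120 (1.72-fold, adjusted p = 0.0046). Exons of the antisense gene Art3 cover 133 bases (5.91%) of the Cxcl10 exons, and the strand setting of the counting is not known. Art3 itself averaged 31.0 CPM in mutant and 33.8 CPM in control libraries and was not called (adjusted p = 0.25). Cxcl9 (ENSMUSG00000029417, chr5:92321347-92328079, minus strand), 18.6 kb from Cxcl10, was at the edge of detection with 1.73, 0.528 and 0.823 CPM in mutant and 0.152, 0.563 and 0.378 CPM in control libraries, or about 10 to 36 and 3 to 12 read pairs. Its groups overlapped, since mutant library 2 lay below control library 2. The log2 fold change of 1.49 ± 0.592 had the largest error of the 10 and was not called (adjusted p = 0.156), and 2 SE either side of it spans 0.31 to 2.67. It ranged from 0.89 without mutant library 1 to 1.95 without control library 2.

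Cxcl1 (ENSMUSG00000029380, chr5:90891241-90893115, plus strand) attracts neutrophils through Cxcr2. It had 11.2, 11.1 and 10.6 CPM in mutant and 14.6, 13.7 and 13.1 CPM in control libraries, so all mutant values lay below all control values. Its log2 fold change was -0.33 ± 0.077 (1.26-fold lower, adjusted p = 0.0274). The adjusted p was 0.0595, 0.08 and 0.0746 without mutant library 1, 2 or 3, and 0.103 and 0.0797 without control library 1 or 2. Cxcl2, its neighbour on chromosome 5 and also a Cxcr2 ligand, had 11.7, 10.4 and 7.68 CPM in mutant and 7.09, 6.66 and 6.79 CPM in control libraries, a log2 fold change of 0.54 ± 0.155 that was not called (adjusted p = 0.0606).

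Cxcl16 and Cx3cl1 differ from the other 8 in that their chemokine domain sits on a mucin-like stalk with a membrane anchor, from which Adam10 and Adam17 can release it. Cxcl16 (ENSMUSG00000018920, chr11:70453983-70459984, minus strand), the ligand of Cxcr6 and also a scavenger receptor, had 11.6, 10.8 and 9.53 CPM in mutant and 5.94, 6.92 and 6.02 CPM in control libraries. The groups were apart by more than the spread within them, and the log2 fold change was 0.76 ± 0.113 (1.69-fold, adjusted p = 0.00391). Exons of the antisense gene Zmynd15 cover 552 bases (18.3%) of the Cxcl16 exons; that gene averaged 0.919 CPM in mutant and 0.485 CPM in control libraries.

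Cx3cl1 (fractalkine; ENSMUSG00000031778, chr8:94772009-94782427, plus strand) tethers and signals to cells with Cx3cr1, which in the brain are mainly microglia. It had 34.2, 29.4 and 33.8 CPM in mutant and 49.4, 48.4 and 44.3 CPM in control libraries. All mutant libraries lay below all control libraries. Its log2 fold change was -0.54 ± 0.075 (1.46-fold lower, adjusted p = 0.00273). The receptor gene Cx3cr1 had 20.9, 21.4 and 27.8 CPM in mutant and 34.8, 29.6 and 32.3 CPM in control libraries. Its log2 fold change of -0.46 ± 0.122 passed the threshold narrowly (adjusted p = 0.0471), it overlaps an antisense gene, and the adjusted p lay between 0.0754 and 0.153 without mutant library 1, mutant library 2, or control library 1, 2 or 3. It was 0.0515 without the low-count filter. Ligand and receptor were thus both lower in the mutant libraries, beside 8 further microglia markers that are given below.

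The start regions of the called genes were compared because calls of opposite sign occurred among genes described as NF-kappaB targets. RefSeq promoter entries (GRCm38.p6) were found for 5 of the 10 genes, namely Ccl3, Cxcl1, Cxcl9, Cxcl10 and Cx3cl1, and the 250 bases before the RefSeq start were searched on both strands for the NF-kappaB consensus and for the core of the interferon-stimulated response element (GAAA, any 2 bases, GAAA). Of 32851 such windows of all genes, 3.9% held the NF-kappaB consensus, 2.98% held the interferon element and 0.122% held both. RefSeq starts can differ from the GENCODE gene ends printed above: that of Ccl3 lies 23 bases upstream, that of Cxcl1 4 bases downstream, and that of Cx3cl1 171 bases downstream, so that most of the Cx3cl1 window lies inside the GENCODE gene, while those of Cxcl9 and Cxcl10 coincide. The windows of Cxcl10 and Ccl3, which rose, and of Cxcl1, which fell, are shown 5′ to 3′ on the gene's strand, with matches in capitals.
Cxcl10, chr5:92348890-92349139, minus strand: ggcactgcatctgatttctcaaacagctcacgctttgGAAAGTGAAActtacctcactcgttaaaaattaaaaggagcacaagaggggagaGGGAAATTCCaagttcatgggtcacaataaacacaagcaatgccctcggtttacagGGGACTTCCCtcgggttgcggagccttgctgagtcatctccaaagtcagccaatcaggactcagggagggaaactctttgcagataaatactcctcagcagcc
Ccl3, chr11:83649379-83649628, minus strand: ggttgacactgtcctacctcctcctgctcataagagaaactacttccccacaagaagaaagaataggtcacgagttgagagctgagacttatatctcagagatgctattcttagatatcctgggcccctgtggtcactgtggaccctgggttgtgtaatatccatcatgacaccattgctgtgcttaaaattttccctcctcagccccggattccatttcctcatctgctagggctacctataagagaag
Cxcl1, chr5:90890995-90891244, plus strand: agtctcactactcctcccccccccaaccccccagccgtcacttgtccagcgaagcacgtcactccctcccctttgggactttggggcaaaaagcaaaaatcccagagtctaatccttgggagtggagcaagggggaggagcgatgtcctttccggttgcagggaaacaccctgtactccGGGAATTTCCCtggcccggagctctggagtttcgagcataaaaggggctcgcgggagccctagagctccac

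The Cxcl10 window, of a gene that rose 1.72-fold, held 2 matches to the NF-kappaB consensus, starting 159 and 103 bases before the RefSeq start, and 1 interferon element starting 213 bases before it. In the Cxcl1 window, of a gene that fell, 2 overlapping matches on 1 palindromic stretch began 71 and 70 bases before the start. The windows of Ccl3, which rose, of Cx3cl1, which fell, and of Cxcl9, which was not called, held neither motif. A match to the NF-kappaB consensus therefore stood before a gene that rose and before a gene that fell. These matches describe letters in a window and not sites that were shown to be bound.

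The chemokine genes of chromosomes 5 and 11 lie in tight groups, and the called genes were compared with their neighbours there. Groups were formed where chemokine genes lay less than 500 kb apart. The group from Ccl5 to Ccl4 on chromosome 11 spans 139 kb and holds 5 chemokine genes, Ccl5, Ccl9, Ccl6, Ccl3 and Ccl4, and all 5 were called higher. Ccl9, a ligand of Ccr1, averaged 13.2 ± 1.48 CPM in mutant and 6.86 ± 0.727 CPM in control libraries (log2 fold change 0.94 ± 0.120, adjusted p = 0.00192). Ccl6 averaged 15.8 ± 1.45 CPM in mutant and 9.00 ± 1.04 CPM in control libraries (log2 fold change 0.81 ± 0.114, adjusted p = 0.00296). The 5 log2 fold changes lay between 0.57 and 1.19. Without a single library the calls of Ccl4 and Ccl5 were lost as given above, while those of Ccl3, Ccl6 and Ccl9 passed the threshold with any library left out.

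The group around Ccl2 spans 270 kb further up chromosome 11 and was less uniform. Of its 6 genes, 5 were tested and 3 were higher. Over all tested genes 7.56% were higher and 14.4% were called in either direction. Ccl12, a mouse ligand of Ccr2, averaged 10.1 ± 0.252 CPM in mutant and 5.77 ± 0.565 CPM in control libraries (log2 fold change 0.81 ± 0.103, adjusted p = 0.00195). Ccl11 (eotaxin), which attracts eosinophils through Ccr3, had 3.70, 2.29 and 1.98 CPM in mutant and 0.278, 0.232 and 0.403 CPM in control libraries, a log2 fold change of 3.12 ± 0.339 (adjusted p = 0.000838). It is near 0 in the control group, so its fold depends on few reads. Ccl7 and Ccl8 of this group were not called and Ccl1 was at 0 in all libraries. On chromosome 5, Cxcl1 was the sole called gene of 4 tested in a group of 7, and Cxcl10 that of 3 in its group, where Cxcl11, the further Cxcr3 ligand, averaged 1.34 ± 0.159 CPM in mutant and 1.23 ± 0.45 CPM in control libraries (adjusted p = 0.853).

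**Figure D2:**
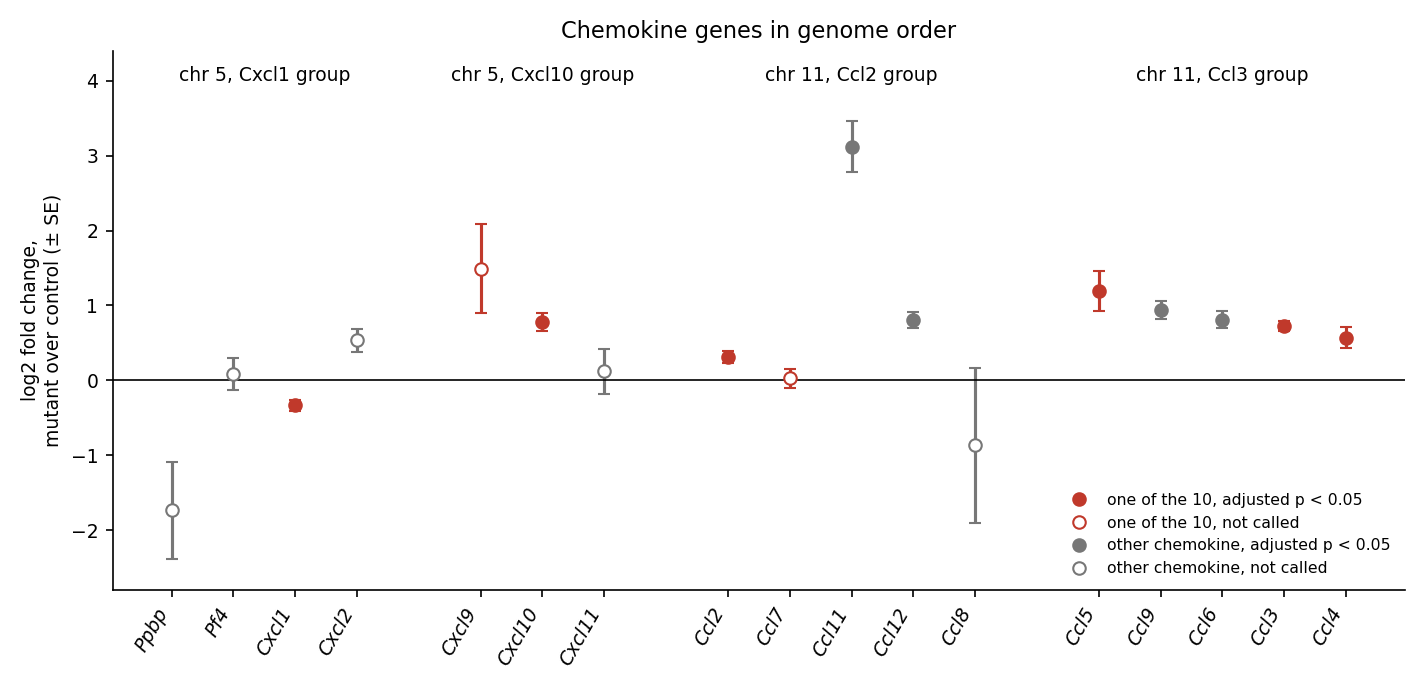
Log2 fold change (mutant over control, ± SE) of the tested chemokine genes of 4 groups on chromosomes 5 and 11, in genome order within each group; filled points had an adjusted p under 0.05. All 5 genes of the group with Ccl3 lie above 0 and are filled, with log2 fold changes of 0.57 to 1.19, whereas the group with Cxcl1 holds 1 filled point, at -0.33. Of all tested genes 7.56% were called higher and 6.83% lower.

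Over all tested genes 7.56% were higher and 6.83% lower. Of 28 other chemokine ligands, 20 were tested, 4 were higher (Ccl6, Ccl9, Ccl11 and Ccl12) and 2 lower, with a median log2 fold change of -0.14. The lower ones are known as homeostatic ligands. Cxcl12, which retains cells through Cxcr4, averaged 427 ± 35.5 CPM in mutant and 761 ± 20.3 CPM in control libraries (-0.83 ± 0.059, adjusted p = 0.000115). Ccl21a, a ligand of Ccr7 with near-identical copies in the mouse genome among which reads may be split, averaged 222 ± 4.14 CPM in mutant and 303 ± 10.99 CPM in control libraries (-0.45 ± 0.037, adjusted p = 0.000228).

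The counts for the gene lists that follow stand against 14.4% of all tested genes called. The receptors of the 10 ligands were mostly scarce. Of 8 tested, Cx3cr1 was lower as given above and 7 were not called, with a median log2 fold change of 0.08. Ccr1 averaged 4.96 ± 0.584 CPM in mutant and 3.67 ± 0.24 CPM in control libraries (adjusted p = 0.0725). Ccr2, Ccr3, Cxcr2, Cxcr3 and Cxcr6 all stayed below 2 CPM in every library. Among 5 atypical receptors, which bind chemokines without classical signalling, Ackr2 rose and Ackr3 fell. Ackr2, a scavenger of inflammatory CC chemokines, had 96.7, 92.2 and 103 CPM in mutant and 34.6, 41.2 and 35.9 CPM in control libraries, so that every mutant value was more than 2-fold any control value. Its log2 fold change was 1.39 ± 0.075 (adjusted p = 3.57e-05). Ackr3, which takes up Cxcl12, averaged 51.6 ± 2.04 CPM in mutant and 65.3 ± 2.75 CPM in control libraries (-0.34 ± 0.050, adjusted p = 0.00374). Ackr1, the venular carrier of CC and CXC chemokines, averaged 32.2 ± 1.19 CPM in mutant and 35.5 ± 3.09 CPM in control libraries and was not called (adjusted p = 0.278).

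Genes that process or hold chemokines moved in both directions. Of 8 sheddases, proteases and their regulators, 1 was higher and 4 lower, with a median log2 fold change of -0.27. Mmp9, a gelatinase that trims several CXC chemokines, averaged 50.8 ± 3.51 CPM in mutant and 19.9 ± 1.9 CPM in control libraries (1.35 ± 0.086, adjusted p = 7.06e-05). Dpp4, a peptidase that clips Cxcl10 and other chemokines, averaged 18.0 ± 1.59 CPM in mutant and 30.6 ± 0.944 CPM in control libraries (-0.76 ± 0.077, adjusted p = 0.000582). Rhbdf2, a partner of Adam17, fell by 0.33 on the log2 scale and Timp3, an inhibitor of Adam17, fell by 0.21. Mmp2 fell by 0.32 (adjusted p = 0.0194), a call that was lost at 0.0664, 0.0669, 0.052 and 0.0624 without mutant library 1 or 2 or control library 1 or 2. The sheddases of Cxcl16 and Cx3cl1 were not called: Adam17 averaged 126 ± 6.64 CPM in mutant and 128 ± 9.83 CPM in control libraries. Adam10 had 297, 291 and 566 CPM in mutant and 537, 545 and 532 CPM in control libraries, so that mutant library 3 lay with the controls (adjusted p = 0.412).

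Of 13 genes of heparan sulphate chains and their core proteins, 3 rose and 5 fell, and the median log2 fold change was -0.12. Ext1, an enzyme that extends the chain, averaged 114 ± 3.08 CPM in mutant and 60.1 ± 0.932 CPM in control libraries (0.92 ± 0.037, adjusted p = 1.1e-05). Hspg2 (perlecan) rose by 0.62 and Sdc3 by 0.23 on the log2 scale. Sdc1 (syndecan-1) averaged 21.3 ± 1.85 CPM in mutant and 45.8 ± 1.57 CPM in control libraries (-1.11 ± 0.073, adjusted p = 8.34e-05). Sdc2 fell by 0.54 and Ext2, the partner of Ext1 in the chain-extending complex, fell by 0.27.

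Upstream of the chemokines, 3 of 31 NF-kappaB and cytokine signalling genes were higher and 2 lower, with a median log2 fold change of -0.0049. Over all tested genes 14.4% were called, a share close to the 5 of 31 here. The cytokine gene Tnf had 12.6, 13.3 and 11.1 CPM in mutant and 6.49, 6.08 and 6.78 CPM in control libraries. The groups were far apart, with a log2 fold change of 0.94 ± 0.102 (adjusted p = 0.000867). Il1b averaged 7.39 ± 1.19 CPM in mutant and 4.41 ± 0.425 CPM in control libraries (0.75 ± 0.149, adjusted p = 0.0146); it overlaps an antisense gene, and leaving out control library 2 or 3 gave an adjusted p of 0.055 or 0.0561. Traf6, an adaptor of interleukin-1 and Toll-like receptors, rose by 0.27. Il6ra, a subunit of the interleukin-6 receptor, averaged 12.4 ± 1.54 CPM in mutant and 26.8 ± 2.21 CPM in control libraries (-1.11 ± 0.108, adjusted p = 0.000488). Ikbkg, the regulatory subunit of the IkappaB kinase complex, fell by 0.31 (adjusted p = 0.0375) and shares exon sequence with an antisense gene. Its adjusted p lay between 0.0764 and 0.138 without mutant library 1, mutant library 2, or control library 1, 2 or 3. The feedback inhibitor Nfkbia, itself an NF-kappaB target, averaged 171 ± 4.6 CPM in mutant and 184 ± 5.26 CPM in control libraries and was not called (adjusted p = 0.114). Rela and Nfkb1 were not called either (adjusted p = 0.656 and 0.172).

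In the interferon-gamma pathway 2 of 10 tested genes were higher and none was lower, where 7.56% of all tested genes were higher, and the median log2 fold change was 0.13. With 10 genes, this count is not read as a difference from the background. The kinase gene Jak2 averaged 118 ± 1.62 CPM in mutant and 96.2 ± 3.72 CPM in control libraries (0.29 ± 0.040, adjusted p = 0.00251). Jak1 rose by 0.17 (adjusted p = 0.0171), which became 0.0561, 0.0535 and 0.0567 without mutant library 2 or control library 1 or 3. Irf1, a transcription factor induced by the pathway, averaged 17.5 ± 1.97 CPM in mutant and 31.0 ± 11.5 CPM in control libraries (adjusted p = 0.137). Ifng, the cytokine itself, was at or below 0.0486 CPM in every library and was not tested.

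**Figure D3:**
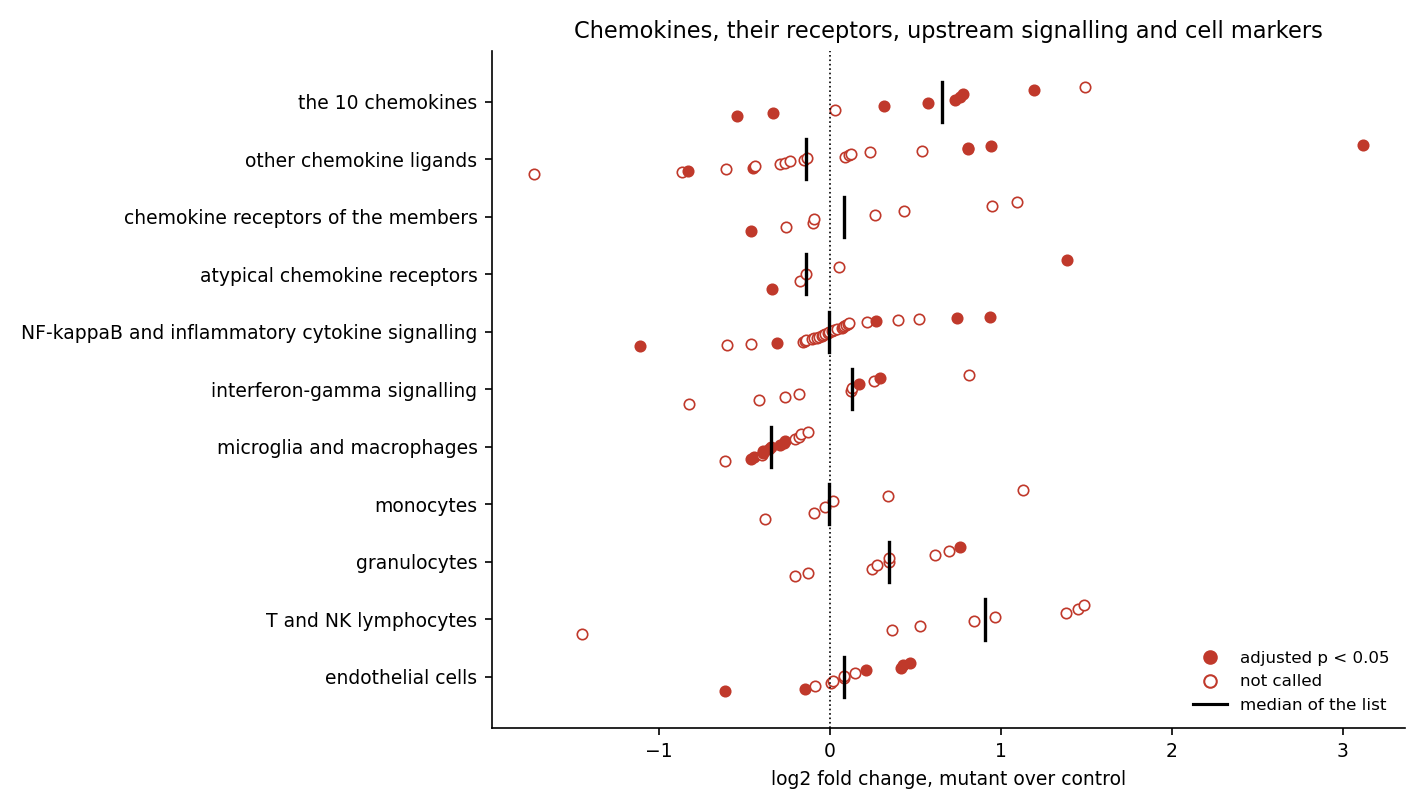
Log2 fold change (mutant over control) of each tested gene of 11 lists, with the list's median as a bar; filled points had an adjusted p under 0.05. The median of the 10 chemokines is 0.65, that of their receptors 0.08, that of the NF-kappaB list -0.0049 and that of microglia and macrophage markers -0.35.

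Cell markers were set beside the chemokines because several of these genes are made by leukocytes and mural cells. Of 15 microglia and macrophage markers none was higher and 9 were lower, with a median log2 fold change of -0.35, and 10 of the 15 had no overlap between groups. Over all tested genes 6.83% were lower and 34.1% had no overlap. Csf1r, the receptor that microglia need to survive, averaged 332 ± 2.67 CPM in mutant and 435 ± 22.5 CPM in control libraries (-0.39 ± 0.042, adjusted p = 0.000784), and Fcrls averaged 89.4 ± 2.01 CPM in mutant and 122 ± 1.58 CPM in control libraries (-0.45 ± 0.035, adjusted p = 0.000174). Ccl3, Ccl4, Ccl6, Ccl9, Ccl12 and Tnf were higher in the same mutant libraries in which these markers were lower. Cx3cl1 and Cxcl1 were lower in them, as the markers were. The part of microglia and macrophages in these differences was not tested.

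Of 10 markers of pericytes and smooth muscle, which summed to 3625 to 3746 CPM in mutant and 3488 to 3606 CPM in control libraries, 3 were higher and 5 lower. The lower ones were Notch3 and the contractile genes Acta2, Myh11, Tagln and Cnn1. Acta2 averaged 71.7 ± 9.12 CPM in mutant and 179 ± 6.22 CPM in control libraries (-1.32 ± 0.093, adjusted p = 0.000242). The higher ones were Cspg4 and the pericyte channel genes Abcc9 and Kcnj8, and Abcc9 averaged 481 ± 7.82 CPM in mutant and 336 ± 12.3 CPM in control libraries (0.52 ± 0.036, adjusted p = 0.000111). Of 6 erythroid markers 5 were lower (Hba-a1, Hba-a2, Hbb-bs, Hbb-bt and Alas2), with sums of 4663 to 4958 CPM in mutant and 6971 to 7177 CPM in control libraries. Of 7 fibroblast markers Col3a1 and Col1a2 were lower, with sums of 530 to 702 CPM in mutant and 802 to 908 CPM in control libraries, and the adjusted p of Col1a2 (0.0365) reached 0.111 without control library 1. Of 7 astrocyte markers Aqp4 was lower (adjusted p = 0.0376, and 0.122 without control library 1) and 6 were not called. The median log2 fold change of this list was -0.32, with sums of 257 to 385 CPM in mutant and 474 to 528 CPM in control libraries. A large part of these sums was Gja1, at 201, 79.2 and 198 CPM in mutant and 275, 273 and 259 CPM in control libraries (adjusted p = 0.326). The part of these cells in the chemokine differences was not tested.

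Among markers of other leukocytes, some stood at levels like those of the chemokines. The granulocyte gene S100a9 averaged 23.2 CPM in mutant and 18.2 CPM in control libraries, and the monocyte gene F13a1 19.0 CPM in mutant and 19.4 CPM in control libraries. These are the highest genes of their lists, and others of the same lists were scarce. Ly6g of the granulocyte list averaged 0.164 CPM in mutant and 0.189 CPM in control libraries. Ccr2 of the monocyte list averaged 1.36 CPM in mutant and 1.45 CPM in control libraries. None of 8 tested T and NK lymphocyte markers was called, but 7 of the 8 had a positive log2 fold change, with a median of 0.90. The list summed to 5.18 to 8.45 CPM in mutant and 4.12 to 4.33 CPM in control libraries. Ccl5 was 2.28-fold higher in these libraries, and the part of lymphocytes in that difference was not tested. Of 9 granulocyte markers 1, the neutrophil granule gene Ngp, was higher (log2 fold change 0.76 ± 0.169, adjusted p = 0.0276, and between 0.0506 and 0.103 when a library other than mutant library 3 was left out), with sums of 60.6 to 83.2 CPM in mutant and 46.0 to 61.9 CPM in control libraries. None of 6 monocyte, 5 platelet and 6 B lymphocyte markers was called, and the B lymphocyte list summed to 79.8 to 88.6 CPM in mutant and 83.2 to 87.7 CPM in control libraries. Immediate early genes, a list added after the values were seen because tissue digestion is known to induce such genes, summed to 2674 to 2924 CPM in mutant and 3202 to 3269 CPM in control libraries. Of its 11 genes Egr1, Fos, Dusp1, Zfp36 and Jun were lower and none was higher, and leaving out a single library gave an adjusted p of up to 0.0716 for Zfp36 and up to 0.0801 for Jun. Fos averaged 429 ± 17.0 CPM in mutant and 527 ± 10.2 CPM in control libraries (-0.30 ± 0.038, adjusted p = 0.00189). Atf3 of this list averaged 118 CPM in mutant and 99.3 CPM in control libraries (0.24 ± 0.068, adjusted p = 0.055). It was called higher with RLE factors (0.0497), with no filter (0.0366), with DESeq2 (0.0197) and without mutant library 3 (0.0117). The part of tissue digestion in the chemokine differences was not tested.

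Genes whose pattern over the 6 libraries was most like that of a called chemokine were sought among 11732 genes with a mean of at least 5 CPM, by the root mean square difference of centred log2 CPM. Nearest to Ccl3 were Tmem120b (0.032), Hilpda (0.041) and Ctla2b (0.049). Hilpda was also among the nearest to Cxcl16 (0.045), behind the glucose transporter gene Slc2a3 (0.028) and ahead of Serpina3n (0.058). Nearest to Ccl2 were Gm15500 (0.034), Tubb2b (0.036) and Pibf1 (0.037), and nearest to Ccl4 were Nxph4 (0.0804), Enho (0.083) and Sh3gl2 (0.0893). Nearest to Cxcl10 were Zfp710 (0.078) and Cox4i2 (0.079), followed by the chemokine Ccl9 (0.091). Nearest to Cx3cl1 were Myl4 (0.032), Lama3 (0.043) and Retreg1 (0.051), and nearest to Cxcl1 were Tspan7 (0.017), Phkb (0.026) and Dact1 (0.026). The 6 libraries form 2 groups, so the measure weighs mainly the difference between them.

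**Figure D4:**
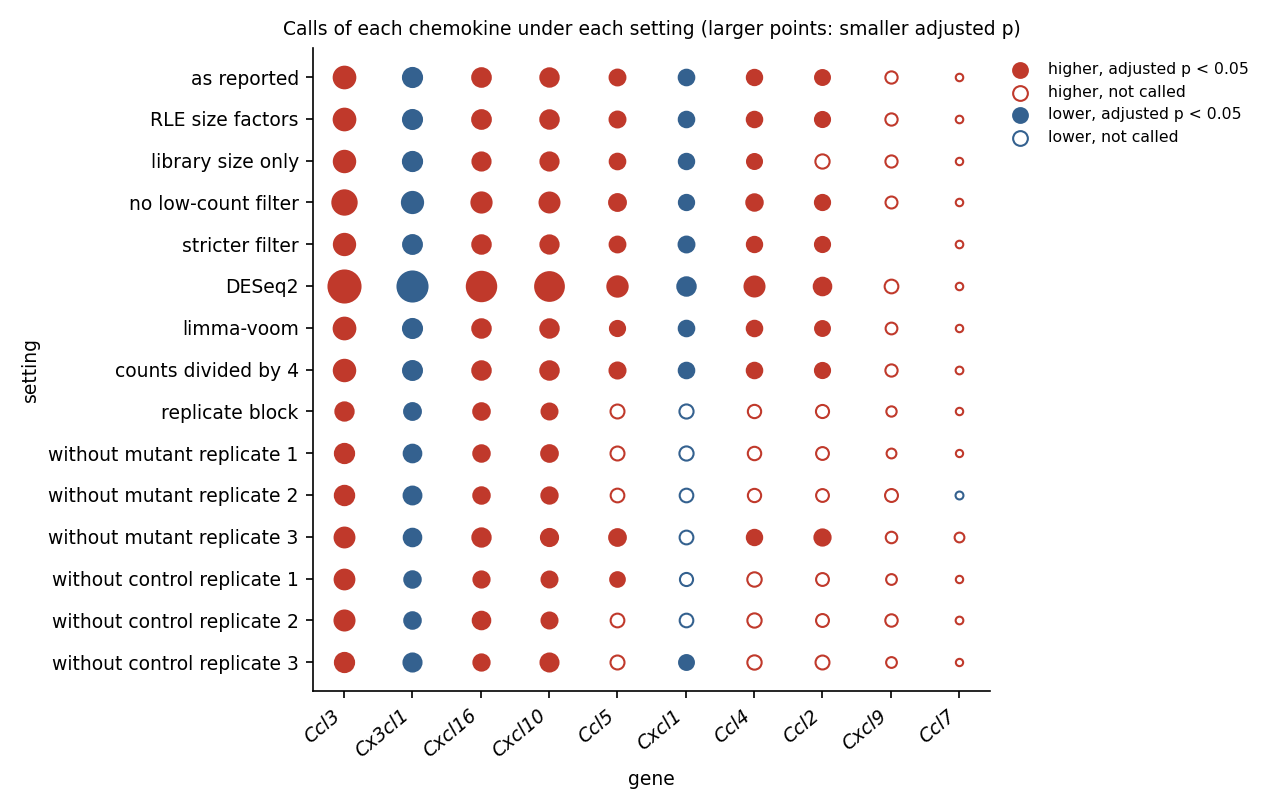
Direction and call of each chemokine (columns, by adjusted p) under the reported setting and 14 alternatives (rows); filled points had an adjusted p under 0.05 and larger points a smaller one. Ccl3, Cx3cl1, Cxcl16 and Cxcl10 are filled in every row, and Ccl5, Cxcl1, Ccl4 and Ccl2 lose their call in 5 to 7 rows.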

How the data were processed

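The authors' deposited table holds estimated counts per Ensembl gene as whole numbers, not normalized, and a deposited quality table gives a count of raw and valid reads and the percent of bases above quality limits. The submitters' processing notes name StringTie 1.3.4, HISAT2, edgeR, FastQC 0.10.1 and cutadapt 1.10, and the build GRCm39. Parameters and strand setting are not given in the sources used here. The table's 55450 identifiers all matched GENCODE release M21 (GRCm38), from which symbols, coordinates and exon lengths come.

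Counts were already whole, so nothing was rounded. A count test had been planned for raw counts and was kept for these estimates. Per library 1118 to 1190 genes had a count of 4, against 316 to 365 with a count of 3, so about 4 counts stand for 1 read pair and precision follows read pairs. Genes were kept by filterByExpr, scaled by TMM (factors 0.978 to 1.01) and tested with edgeR 4.0.16 (glmQLFit with robust fitting, glmQLFTest; R 4.3.3) for the effect of genotype. Adjusted p is by Benjamini-Hochberg across 19549 genes. The SE was taken as the absolute log2 fold change divided by the root of F. CPM were computed from the deposited counts and TMM factors, and means are given ± SD over 3 libraries. Within groups the counts of 2 libraries differed by 1.89 to 2.83 times the sampling expectation (median chi-square), so none were merged. The test was checked on simulated data.

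The 10 genes and the lists were chosen with earlier results of these data known. Named were the 10 genes, Rbpj, up to 6 called genes per list by adjusted p, all called chemokine ligands, and the 3 genes nearest in pattern to each called member with at least 5 CPM; other genes were named after their values were seen. Alternatives were RLE size factors, library size alone, no filter, a stricter filter (1 CPM in 3 libraries), DESeq2 1.42.0, limma-voom 3.58.1, counts divided by 4, the replicate number as a block and each library left out. The labels' age of postnatal day 7 was used, although a separate time field reads P0. Values of some single genes in these lists are not reported here.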

Additional observations from a re-analysis of the deposited data

How the results depend on the processing

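Across 14 alternatives the direction of every called chemokine was kept, and 4 of the 8 calls (Ccl3, Cxcl10, Cxcl16 and Cx3cl1) passed the threshold under all of them; Ccl2, Ccl4, Ccl5 and Cxcl1 did not, mainly where fewer samples were used. With a library left out, 3 to 6 of the 10 genes were called higher (6 with all libraries) and 1 to 2 lower (2 with all). Over all genes, 1477 were higher with all libraries and 1100 to 1270 with one left out, and 1335 were lower, against 807 to 1125. Same-numbered libraries did not deviate together (correlations of -0.0233, 0.00969 and 0.0233), so the numbers were not taken as pairs; with the replicate number as a block, 3 chemokines were called higher and 1 lower, Ccl2, Ccl4, Ccl5 and Cxcl1 losing their calls. Under library size alone 5 were called higher, without Ccl2. Ccl7, Junb and Egr2 were called under no setting, and leaving out a library turned their log2 fold changes, which ran from -0.067 (without mutant library 2) to 0.143 for Ccl7, from -0.065 to 0.00835 (without mutant library 3) for Junb and from -0.219 to 0.018 (without mutant library 3) for Egr2. The stricter filter removed Cxcl9. RLE factors and library size alone moved the median log2 fold change of all genes by 0.0061 and -0.0091. Of 91 other genes followed through the alternatives, 72 lost no call. That count includes genes such as Cxcl2 and Atf3, which were not called under the reported setting and so had no call to lose. Depth limits Cxcl9, with 3 to 36 read pairs per library, and Ccl5, with 16 to 58.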
